A study of Mus musculus with 62 samples.

Results

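The 10 genes described here are Nrep, the TGF-beta ligands Tgfb1, Tgfb2 and Tgfb3, the receptors Tgfbr1 and Tgfbr2, the latency gene Ltbp4, and the matricellular genes Postn, Tnc and Sparc. They are 10 of 47643 listed in diaphragm muscle and were chosen by name. Nrep was chosen because it was among the largest falls in cachectic versus control mice at 8 weeks, so the values at 8 weeks are given for every one of the 10 genes as a description, without a test. Expression is given as TPM, a number of transcripts scaled so that every library sums to 1000000. All 10 genes passed a filter that kept the 13578 genes whose TPM was 1 or more in 5 or more mice. Ltbp4 is listed on 2 lines, of which the other is at 0 in all 62 mice and was not used.

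RNA-seq was done on the diaphragm of 62 female mice, each library coming from 1 mouse. Their age is given as 2 months at every week, which the methods of the study name as the age at purchase. The mice carried a melanoma xenograft that causes cachexia, the wasting of muscle that accompanies cancer, or a melanoma xenograft that does not, and control mice received a mock injection of PBS. Tissue was taken 2, 4, 6 and 8 weeks after implantation, which makes 12 conditions of 5 mice, except for 7 cachectic mice at 8 weeks. The sample labels name the strain C57BL6/J, whereas the study design names athymic nude mice, which lack T cells, and the labels and the methods also name different library kits.

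The xenografts are human melanoma cells placed in the flank, and the 2 xenograft groups carry different melanoma cells, so the effect of cachexia and other differences between the tumors cannot be told apart. Myofiber genes, led by Acta1, had the highest summed TPM of the cell type lists examined, and the 5 T cell genes examined each averaged under 1 TPM. TPM takes the length of each gene into account, so that levels can be set side by side between genes. The number of reads per library is unknown, so no counting error is given.

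TGF-beta ligands are secreted in a latent form, bound to a propeptide and to latent TGF-beta binding proteins that anchor them in the extracellular matrix. Once released, they bind a type II receptor that recruits and phosphorylates a type I receptor, and SMAD proteins then carry the signal to the nucleus. In muscle the pathway is known for matrix deposition by fibroblasts and for restraining growth and repair of fibers, and matricellular proteins are matrix proteins that modulate how cells respond rather than bearing load.

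Some libraries stand apart. In 4 libraries (cachectic mice 3 and 4 and non-cachectic mouse 5 at 2 weeks, and cachectic mouse 3 at 8 weeks) the number of genes above 0 was 15069 to 16389, and it was 17909 or more in all others. In those 4 libraries mitochondrially encoded genes took 54.4 to 61.5% of the TPM, against 32.5 to 50.1% in the rest. Liver genes were high in 7 libraries (cachectic mouse 1 and control mice 2, 4 and 5 at 2 weeks, control mouse 1 at 4 weeks, cachectic mouse 5 at 6 weeks and cachectic mouse 2 at 8 weeks). Where a call on 1 of the 10 genes rests on these libraries, it is given with and without them.

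In control mice, where n = 20 over the 4 weeks, the 10 genes spanned a wide range of TPM. Sparc was the most abundant at 235 ± 50.8 TPM (mean ± SD), followed by Ltbp4 at 95.8 ± 18.6 and Nrep at 94.7 ± 13.2. Tgfbr2 (44.0 ± 7.00), Tgfb3 (28.3 ± 3.28) and Tgfbr1 (10.7 ± 1.39) were intermediate, so the type II receptor was more abundant than the type I receptor per length of transcript. Tgfb2 (8.53 ± 1.46), Tgfb1 (8.16 ± 1.74), Postn (7.14 ± 4.10) and Tnc (1.16 ± 0.531) were lower. Tnc reached 1 TPM in 20 of the 62 mice, and its values lie close to the limit of the filter.

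Nrep encodes a small intracellular protein, named for nerve regeneration, that is also present in muscle and in fibroblasts and has been linked to the translation of TGF-beta mRNAs. It lies on chromosome 18 from 33437019 to 33464029 on the minus strand (GRCm38) and is protein coding. Cachectic mice were compared with control mice to ask what the tumor changes, and with non-cachectic mice to ask which changes separate a tumor that wastes muscle from one that does not. Both comparisons use the same cachectic mice.

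At 6 weeks Nrep was at 12.1, 20.6, 26.9, 26.4 and 30.2 TPM in the 5 cachectic mice. The 5 control mice had 64.4, 102, 80.4, 86.8 and 85.0 TPM, and the 5 non-cachectic mice had 69.9, 94.1, 104, 58.9 and 69.7 TPM. Every cachectic mouse lay below every mouse of the other groups, with a wide gap between them. Nrep fell by 1.85 on the log2 scale against control mice (SE 0.38, adjusted p 0.00104 by limma, lower in 5 of 5 mice), a 3.61-fold difference of TPM + 1. Against non-cachectic mice Nrep fell by 1.76 (SE 0.38, adjusted p 0.00221 by limma, lower in 5 of 5 mice), a 3.39-fold difference. An exact two-sided permutation test gave p 0.00794 in each comparison, the smallest that 5 mice against 5 allow. In muscle tissue, fewer cells of a type and less RNA per cell cannot be told apart.

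Nrep had the place 5 from the lowest log2 fold change among the 13578 genes tested against control mice and the place 14 against non-cachectic mice. Leaving out each mouse in turn gave log2 fold changes of -1.96 to -1.65 against control mice (adjusted p 0.00104 to 0.0111 by limma) and -1.87 to -1.55 against non-cachectic mice (0.00216 to 0.0200). Dunn's test on ranks did not call it, with adjusted p 0.152 and 0.217, the highest over the alternatives, whose lowest were 3.99e-08 and 1.84e-07. The study itself used Dunn's test, with a Kruskal-Wallis test on log TPM, and names no adjustment for its cutoffs on p. That test called 0 of the 13578 genes in either comparison at 6 weeks, where 4433 and 3608 had an unadjusted p under 0.05 by it, and 0 in each comparison of groups at 2 and 4 weeks. The non-cachectic xenograft gave Nrep levels near those of controls at 6 weeks, with a log2 fold change of -0.09 (SE 0.38, adjusted p 1 by limma).

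Over the 12 conditions Nrep was lowest in cachectic mice at 4, 6 and 8 weeks. The highest mean was in cachectic mice at 2 weeks (104 ± 38.3 TPM, SD), followed by non-cachectic (103 ± 27.2) and control mice (100 ± 13.4) at the same week. Control mice at 8 weeks (98.1 ± 7.71) and 4 weeks (96.8 ± 14.0) came next, then non-cachectic mice at 4 weeks (90.9 ± 11.0), controls at 6 weeks (83.7 ± 13.4), and non-cachectic mice at 8 (83.1 ± 26.3) and 6 weeks (79.3 ± 18.8). The last places were those of cachectic mice at 4 weeks (59.9 ± 42.0), 6 weeks (23.2 ± 7.14) and 8 weeks (19.1 ± 13.2). No neighbouring pair in this order differed by more than the larger of their SDs.

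**Figure D1:**
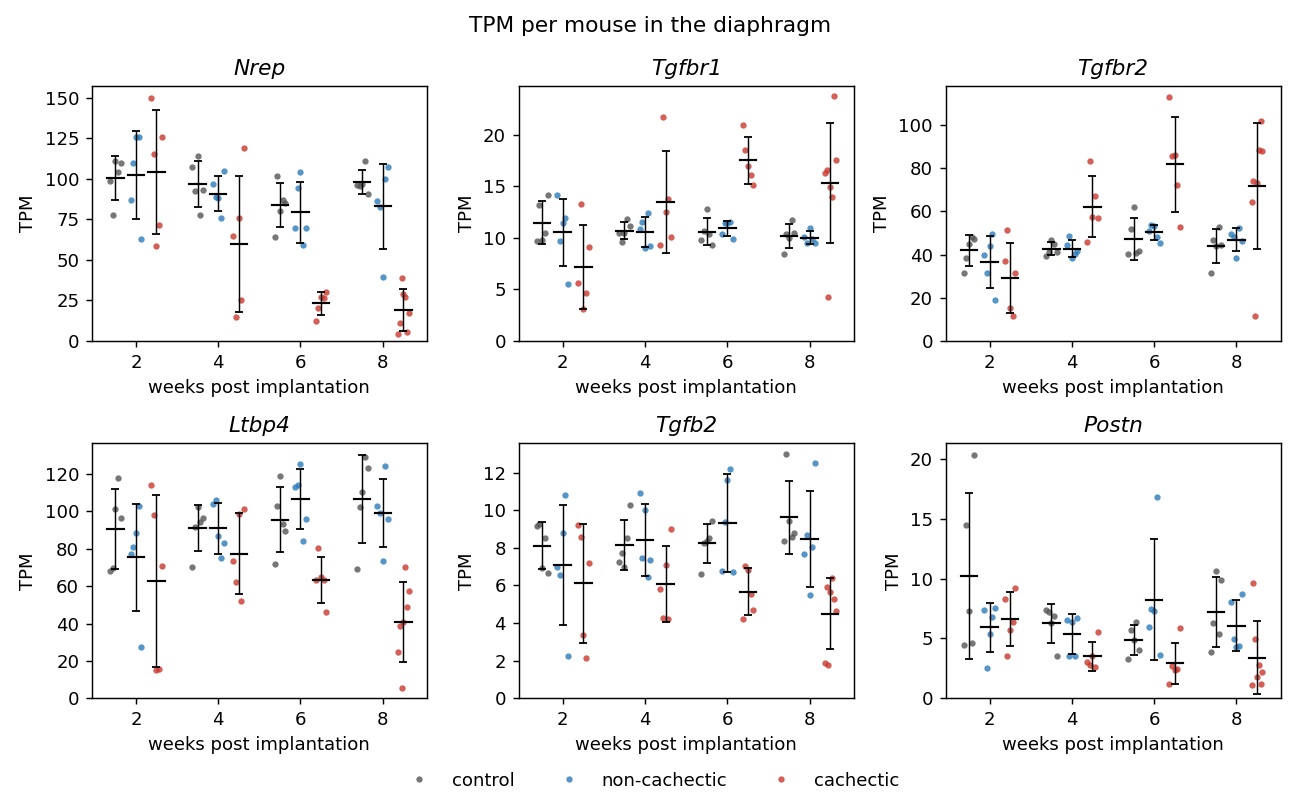
TPM of 6 genes per mouse (points) by week after implantation, with the mean (line) and SD (bars) of each group, offset by group for legibility. Nrep at 6 weeks lies between 12.1 and 30.2 TPM in cachectic mice and between 58.9 and 104 TPM in the other mice.

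At 4 weeks Nrep was at 64.9, 14.5, 75.7, 25.4 and 119 TPM in cachectic mice. Control mice had 107, 92.6, 114, 77.9 and 92.8 TPM at that time, and non-cachectic mice had 96.8, 88.6, 88.0, 75.9 and 105 TPM. Cachectic mice 2 and 4 were low, cachectic mouse 5 was above every other mouse of that week, and the ranges overlapped. The log2 fold change was -1.02 against control mice (SE 0.38, adjusted p 0.627 by limma, below all controls in 4 of 5 mice) and -0.94 against non-cachectic mice (adjusted p 0.796), so neither passed the test. At 2 weeks cachectic mice had 150, 115, 58.5, 71.5 and 126 TPM, control mice 98.8, 77.7, 111, 104 and 110 TPM and non-cachectic mice 87.1, 110, 126, 126 and 63.0 TPM. The lowest 2 cachectic values at 2 weeks came from libraries of few genes, and the log2 fold change against control mice was -0.02 (adjusted p 0.972 by limma). Without those libraries the cachectic mean was 130 ± 17.9 TPM (SD, n = 3), 1.3 times the control mean, against 1.04 times with them.

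The difference between cachectic and control mice in Nrep was not called as growing from 4 to 6 weeks by limma on all mice. Its change was -0.83 on the log2 scale (SE 0.54, adjusted p 1 by limma), and that against non-cachectic mice was -0.82 (adjusted p 1). Within cachectic mice the log2 fold change from 4 to 6 weeks was -1.04 (SE 0.38, adjusted p 0.400). Across all genes limma called 0.0147% lower and 0.0810% higher in that contrast, and none of the 10 genes. With array quality weights Nrep was called lower in these 3 contrasts, and without both the libraries of few genes and those with liver genes it was called lower within cachectic mice. The limma contrasts of 6 with 4 weeks in control mice, of 6 and of 8 with 4 weeks in non-cachectic mice, and of both changes of difference called 0 genes (0%) in either direction, where 56, 52, 168, 506 and 249 genes had an unadjusted p under 0.05.

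Read over the whole group at 6 weeks, limma called 1 of the 10 genes lower in cachectic than in control mice, which was Nrep, beside 1.17% of all genes tested, and 0 higher, beside 5.62%. Against non-cachectic mice it called 2 lower, Nrep and Postn, beside 1.57% of all genes, and 0 higher, beside 4.28%. Between non-cachectic and control mice it called 0 of the 10 and 0 (0%) of all genes in either direction at 6 weeks, where 100 genes had an unadjusted p under 0.05, against 2726 and 2415 in the cachectic comparisons. By ranges that did not overlap, Nrep was lower (2.95% of all genes) and Tgfbr1 higher (15.9%) against control mice, and Nrep and Ltbp4 were lower (3.30%) and Tgfbr1 higher (13.6%) against non-cachectic mice. The share of all genes with higher ranges is large, so Tgfbr1 is not set apart by it.

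At 6 weeks the genes tested had a median log2 fold change of 0.17 in cachectic versus control mice and 0.14 in cachectic versus non-cachectic mice, although TPM has the same sum in every library. Mitochondrially encoded genes took 34.3, 39.9, 39.3, 39.8 and 44.9% of the TPM in cachectic mice, 47.9, 44.9, 45.5, 46.2 and 47.5% in control mice and 46.5, 44.8, 43.2, 47.9 and 47.2% in non-cachectic mice. Their share was thus lower in mean in cachectic mice, and with TPM of nuclear genes alone the medians were 0.03 and 0.01. Median-ratio scaling brought both to 0.01. Relative to that shift Nrep was at -2.02 and -1.90, Ltbp4 at -0.75 and -0.88, Tgfb2 at -0.65 and -0.75, Postn at -0.82 and -1.32, Tgfbr1 at 0.50 and 0.49, and Tgfbr2 at 0.59 and 0.52. The split of the calls over all genes turns on this scaling: 82.8% of the genes called against control mice were higher, against 46.6% with median-ratio scaling, 45.6% with nuclear genes alone and 42.1% with quantile normalization. Against non-cachectic mice the share was 73.2%, and 45.1%, 37.8% and 40.8% with those scalings.

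The number of the 10 genes called at 6 weeks depended on libraries of other weeks, since all 62 mice share an estimate of spread. Without the 4 libraries of few genes, none of which is from 6 weeks, the log2 fold changes stayed the same and the spread was smaller. limma then called Nrep and Ltbp4 lower against control mice, beside 4.29% of all genes, and Tgfbr1 and Tgfbr2 higher, beside 26.9%. Against non-cachectic mice it called Nrep, Ltbp4, Tgfb2, Postn and Sparc lower, beside 5.18% of all genes, and Tgfbr1 and Tgfbr2 higher, beside 22.1%. In this fit the 2 receptors called among 10 genes lie near the background. With median-ratio scaling 3 of the 10 were called lower and the 2 receptors higher against control mice, beside 3.98% and 3.47% of all genes. Against non-cachectic mice 5 were lower and the 2 receptors higher, beside 4.21% and 3.45%. With that scaling the 2 receptors among 10 genes lie above the background, so their standing depended on the scaling.

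**Figure D2:**
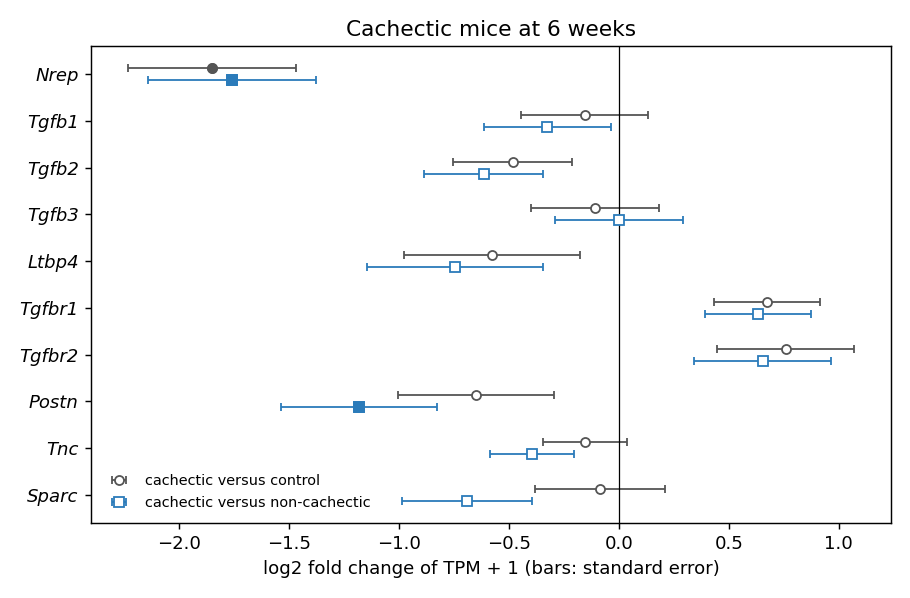
Log2 fold change of the 10 genes at 6 weeks on the horizontal axis, cachectic versus control (circles) and cachectic versus non-cachectic mice (squares), with bars for the SE. Filled symbols have an adjusted p under 0.05 by limma and are Nrep in both comparisons and Postn in cachectic versus non-cachectic mice.

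The ligands are the signals of the pathway, and a muscle may make them in fibroblasts, immune cells or fibers. Tgfb1 (chromosome 7, 25687002 to 25705077, plus strand) encodes the ligand best known from immune and stromal cells. Tgfb2 (chromosome 1, 186622792 to 186705989, minus strand) encodes a ligand that needs a co-receptor for strong binding to the type II receptor, and Tgfb3 (chromosome 12, 86056745 to 86079041, minus strand) encodes the ligand known for its part in palate closure and scarring.

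Tgfb2 was at 4.24, 7.05, 6.84, 5.54 and 4.68 TPM in cachectic mice at 6 weeks, against 6.59, 8.26, 8.39, 8.51 and 9.45 TPM in control mice and 6.75, 9.39, 11.6, 12.2 and 6.72 TPM in non-cachectic mice. The cachectic values were lower in mean, and 3 of 5 lay below all mice of each other group, so the ranges overlapped. Its log2 fold change was -0.48 against control mice (SE 0.27, adjusted p 0.322 by limma) and -0.61 against non-cachectic mice (adjusted p 0.199). Without the libraries of few genes the second had an adjusted p of 0.0160, in a range over the alternatives of 0.00670 to 0.293.

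Tgfb1 and Tgfb3 gave small log2 fold changes at 6 weeks, none of which passed the test. Tgfb1 was at 8.24, 8.36, 5.79, 6.38 and 5.51 TPM in cachectic mice, with a log2 fold change of -0.16 against control mice and of -0.33 against non-cachectic mice (adjusted p 0.802 and 0.620 by limma). Tgfb3 was at 25.5, 29.3, 28.5, 26.7 and 22.6 TPM in cachectic mice, within 22.6 to 32.7 TPM in all 15 mice of that week. Its log2 fold change was -0.11 against control mice (adjusted p 0.869) and 0.00 against non-cachectic mice (adjusted p 0.999), where it turned negative with median-ratio scaling (-0.15), nuclear genes alone (-0.15) and quantile normalization (-0.16). A p that misses the threshold does not show that the groups were alike, and the normal 95% intervals of these log2 fold changes reach from -0.73 to 0.41 for Tgfb1 and from -0.68 to 0.46 for Tgfb3 against control mice.

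Ltbp4 (chromosome 7, 27305136 to 27337692, minus strand) encodes a latent TGF-beta binding protein that holds the latent complex in the matrix, and variants of it are known to modify muscular dystrophy. At 6 weeks it was at 63.0, 80.6, 64.6, 63.3 and 45.9 TPM in cachectic mice, 71.8, 103, 119, 93.3 and 89.6 TPM in control mice, and 113, 114, 125, 84.3 and 96.0 TPM in non-cachectic mice. Against non-cachectic mice the ranges did not overlap, and against control mice cachectic mouse 2 lay above the lowest control. Its log2 fold change was -0.58 (SE 0.40, adjusted p 0.447 by limma) against control mice and -0.74 (SE 0.40, adjusted p 0.330) against non-cachectic mice. Without the libraries of few genes the adjusted p by limma was 0.0220 and 0.00421, in ranges over the alternatives of 0.0120 to 0.538 and 0.000495 to 0.443. Median-ratio scaling, which keeps those libraries, gave 0.0357 and 0.0121, so whether Ltbp4 was called depended on more than 1 choice.

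The receptors stand at the cell surface, where Tgfbr2 binds the ligand and Tgfbr1 is the kinase that phosphorylates SMAD proteins. Tgfbr1 (chromosome 4, 47353222 to 47414931, plus strand) was at 20.9, 18.5, 17.0, 16.1 and 15.1 TPM in cachectic mice at 6 weeks, against 9.82, 10.7, 12.8, 10.4 and 9.31 TPM in control mice and 10.4, 11.4, 11.4, 11.5 and 9.84 TPM in non-cachectic mice. All 5 cachectic mice lay above all mice of the other groups. Tgfbr1 had a log2 fold change of 0.67 against control mice (SE 0.24, adjusted p 0.0789 by limma) and 0.63 against non-cachectic mice (SE 0.24, adjusted p 0.115), so neither passed the test. Without the libraries of few genes the adjusted p was 0.000671 and 0.00146, in ranges over the alternatives of 6.21e-07 to 0.131 and 8.27e-06 to 0.165.

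Tgfbr2 (chromosome 9, 116084293 to 116175360, minus strand) was at 113, 85.4, 85.9, 72.1 and 52.8 TPM in cachectic mice at 6 weeks, 40.1, 51.9, 62, 40.6 and 41.5 TPM in control mice and 50.9, 53.6, 53.1, 48.3 and 45.2 TPM in non-cachectic mice. In each comparison 4 of 5 cachectic mice lay above all others, and cachectic mouse 5 overlapped. Tgfbr2 had a log2 fold change of 0.76 against control mice (SE 0.31, adjusted p 0.140 by limma) and 0.65 against non-cachectic mice (adjusted p 0.254). Without the libraries of few genes the adjusted p was 0.000278 and 0.00151, in ranges over the alternatives of 1.18e-07 to 0.193 and 1.18e-05 to 0.353. At 4 weeks Tgfbr2 was at 45.9, 83.3, 57.6, 67.0 and 57.0 TPM in cachectic mice, of which 4 of 5 lay above all controls, with a log2 fold change of 0.51 (adjusted p 1 by limma). Both receptor genes were thus higher in mean than the other groups at 6 weeks, and Nrep lower, in the same 5 mice.

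Matricellular genes complete the group. Postn (chromosome 3, 54361109 to 54391037, plus strand) encodes periostin, which binds collagen and integrins and is made by activated fibroblasts and tendon cells. At 6 weeks Postn was at 1.24, 2.71, 2.40, 2.42 and 5.86 TPM in cachectic mice, 3.30, 5.73, 4.89, 6.37 and 4.00 TPM in control mice and 5.94, 7.49, 7.30, 16.8 and 3.61 TPM in non-cachectic mice. In each comparison 4 of 5 cachectic mice lay below all others and cachectic mouse 5 overlapped, while non-cachectic mouse 4 was far above the rest. Postn fell by 1.18 against non-cachectic mice (SE 0.35, adjusted p 0.0327 by limma), a 2.27-fold difference of TPM + 1. The log2 fold change against control mice was -0.65 (SE 0.35, adjusted p 0.307).

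The call on Postn was not stable to single mice. It ended without cachectic mouse 1 (adjusted p 0.154 by limma), mouse 2 (0.0581), mouse 3 (0.0621) or mouse 4 (0.0694). It also ended without non-cachectic mouse 2 (0.0626), mouse 3 (0.0560) or mouse 4 (0.148). Over the 10 fits that left out 1 mouse the log2 fold change ran from -1.41 to -0.91, and it was -1.19, -1.16 and -1.16 without cachectic mice 2, 3 and 4 and -1.18 and -1.19 without non-cachectic mice 2 and 3. It was nearer to 0 without cachectic mouse 1 (-1.01) and without non-cachectic mouse 4 (-0.91). Postn varied widely among controls as well, with the largest SD relative to its mean of the 10 genes.

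Sparc (chromosome 11, 55394500 to 55423183, minus strand) encodes osteonectin, a collagen-binding protein of the matrix. It was at 150, 195, 201, 169 and 143 TPM in cachectic mice at 6 weeks, 153, 193, 195, 199 and 168 TPM in control mice and 315, 328, 317, 245 and 196 TPM in non-cachectic mice. The ranges of cachectic and control mice overlapped, and 4 of 5 non-cachectic mice lay above all controls. The log2 fold change was -0.09 against control mice (adjusted p 0.900 by limma) and -0.69 against non-cachectic mice (SE 0.30, adjusted p 0.180, 4 of 5 below all others). That of non-cachectic versus control mice was 0.60 (SE 0.30, adjusted p 1), so the lower value in cachectic than in non-cachectic mice goes with a high value in the latter. The control mean at 6 weeks (182 ± 20.3 TPM, SD) was also the lowest of the control weeks. Control means were 275 ± 56.9 TPM at 2 weeks, 252 ± 29.6 at 4 weeks and 234 ± 42.8 at 8 weeks. Postn (4.86 TPM) and Tnc (0.724 TPM) likewise had their lowest control means at 6 weeks.

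Tnc (chromosome 4, 63959785 to 64047015, minus strand) encodes tenascin C, a large glycoprotein of developing and injured matrix and of tendon junctions. At 6 weeks it lay between 0.362 and 0.652 TPM in cachectic mice, between 0.517 and 0.969 TPM in control mice and between 0.561 and 1.44 TPM in non-cachectic mice. The ranges overlapped, and the log2 fold changes were -0.16 and -0.40 (adjusted p 0.697 and 0.257 by limma). At values this low a pseudocount of 1 shrinks the log2 fold change.

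The earlier weeks ask whether any of the 10 genes differed before the loss of muscle was advanced. At 4 weeks limma called none of the 10 against control mice, beside 0.00736% of all genes lower and 0.0147% higher, and none against non-cachectic mice, beside 0% lower and 0.0295% higher. Between non-cachectic and control mice it called 0 of all genes (0%) in either direction, and 728, 697 and 68 genes had an unadjusted p under 0.05 in the 3 comparisons. As at 6 weeks, the counts over all genes depended on libraries of other weeks. Without the libraries of few genes, none of which is from 4 weeks, the 1 lower and 2 higher against control mice became 44 and 207, and the 0 and 4 against non-cachectic mice became 48 and 255, still with none of the 10. With array quality weights they became 168 and 901, and 130 and 985, with Tgfbr2 called higher in both comparisons. Besides Nrep, the log2 fold changes against control mice at 4 weeks ran from -0.69 for Postn to 0.51 for Tgfbr2.

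At 2 weeks limma called 1 of the 10 genes lower in cachectic than in control mice, Tgfbr1, beside 27.8% of all genes, and 0 higher, beside 1.41%. So large a share makes 1 gene of 10 no result about the group, and it does not hold under other choices. The 3781 genes lower and 192 higher became 0 and 0 without the libraries of few genes, without those with liver genes and with only the groups compared. They became 153 and 0 with array quality weights, 1209 and 1166 with median-ratio scaling, and 627 and 1549 with quantile normalization. Tgfbr1 was at 5.58, 13.3, 3.09, 4.67 and 9.12 TPM in cachectic mice and 9.73, 13.2, 9.76, 10.5 and 14.2 TPM in control mice, and 4 of 5 cachectic mice lay below all controls. It fell by 0.74 (SE 0.24, adjusted p 0.0236 by limma), yet the call ended without cachectic mouse 3 (adjusted p 0.190) or mouse 4 (0.111), the libraries of few genes, or control mouse 2 (0.0765) or mouse 5 (0.0678). Without all libraries of few genes and those with liver genes, which leaves 2 cachectic and 2 control mice, its log2 fold change was 0.16. Between cachectic and non-cachectic mice at 2 weeks limma called 0 genes (0%) in either direction, with 1709 at an unadjusted p under 0.05, and between non-cachectic and control mice 4.42% lower and 0.0147% higher, none of them among the 10. The 600 genes lower in the latter became 0 without the libraries with liver genes and with only the groups compared, and 1712 with array quality weights.

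At 8 weeks the comparison chose Nrep, and the values are a description. In cachectic mice Nrep was at 4.15 TPM at the lowest, 17.2 at the median and 39.1 at the highest, the last being the library of few genes. Control mice had 96.4, 95.5, 96.8, 111 and 90.5 TPM and non-cachectic mice 86.1, 82.7, 39.6, 100 and 107 TPM. All 7 cachectic mice lay below all mice of the other groups, though non-cachectic mouse 3 came within reach of the highest of them. Its log2 fold change was -2.64 against control mice and -2.33 against non-cachectic mice, the place 4 from the lowest among the genes tested in each. The mean TPM was 0.195 of that of control mice.

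The other genes at 8 weeks had the following values in cachectic mice against control mice. Ltbp4 had a lowest value of 5.60, a median of 40.8 and a highest of 70.2 TPM, against 69.2, 102, 110, 129 and 123 TPM (log2 fold change -1.60). Tgfb2 had 1.78, 5.28 and 6.38 TPM as lowest, median and highest, against 8.35, 13, 9.41, 8.57 and 8.79 TPM (-1.02), with no overlap. Both were thus lower in mean at 8 weeks as they were at 6 weeks.

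Tgfbr1 had 4.28, 16.3 and 23.7 TPM as lowest, median and highest in cachectic mice, against 8.41, 10.4, 9.97, 11.7 and 10.5 TPM in control mice (log2 fold change 0.43), and Tgfbr2 had 11.6, 74.2 and 102 TPM against a control mean of 43.9 ± 7.87 TPM (SD, n = 5; log2 fold change 0.50). In both receptors 6 of 7 cachectic mice lay above all controls, and the remaining one, mouse 3 with few genes, lay below all of them. Without mouse 3 the log2 fold changes were 0.69 for Tgfbr1 and 0.88 for Tgfbr2. The rest of the genes were lower in mean, with log2 fold changes of -1.06 for Postn, -0.94 for Sparc, -0.74 for Tnc, -0.65 for Tgfb1 and -0.64 for Tgfb3. Without mouse 3 these were -1.17, -0.71, -0.71, -0.32 and -0.33, and those of Nrep, Ltbp4 and Tgfb2 were -2.86, -1.21 and -0.88. Ranges without overlap at 8 weeks were those of Nrep and Tgfb2 against control mice, beside 3.82% of all genes, and of Nrep and Ltbp4 against non-cachectic mice, beside 2.42%.

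Wider lists of the pathway place these genes among their partners, and at 8 weeks their calls share the comparison that chose Nrep. Over all genes limma called 8.12% lower and 6.65% higher in cachectic than in control mice at 8 weeks, and 6.19% lower and 6.75% higher than in non-cachectic mice. The share of the calls that were higher was 45.0% and 52.2%, against 20.6% and 23.3% with nuclear genes alone and 64.2% and 69.5% without the libraries of few genes. The 1102 genes lower and 903 higher against control mice became 1682 and 3015 without the libraries of few genes and 1675 and 1587 with median-ratio scaling. Against non-cachectic mice 840 and 917 became 1381 and 3144, and 1538 and 1394.

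The list of latency and activation holds the proteins that store the ligand and the integrins and proteases that release it. Of its 15 genes 13 were tested, and limma called 0 in either direction at 6 weeks, with a median log2 fold change of 0.15 against control mice (all genes 0.17; -0.01 with median-ratio scaling) and -0.02 against non-cachectic mice (all genes 0.14). This changed without the libraries of few genes to 1 lower and 2 higher against control mice (4.29% and 26.9% of all genes) and 2 lower and 1 higher against non-cachectic mice (5.18% and 22.1%), and with median-ratio scaling to 1 higher and to 2 lower. At 8 weeks 2 were lower against control mice (median -0.40, all genes -0.09). The median was -0.17 without the libraries of few genes, and 5 were called lower with median-ratio scaling. Fbn1, which encodes the microfibril protein that binds latent TGF-beta binding proteins, was at 5.74 ± 2.85 TPM (SD, n = 7) against 14.7 ± 3.62 TPM (n = 5) and fell by 1.28 (SE 0.32, adjusted p 0.00305 by limma). Itgb6, an integrin chain that activates latent TGF-beta, fell by 0.95 (adjusted p 0.00419). Against non-cachectic mice at 8 weeks Ltbp2, Fbn1 and Itgb6 were lower (median -0.29, all genes -0.08; median -0.05 without the libraries of few genes). Of these, Fbn1 was no longer called without cachectic mouse 1 or non-cachectic mouse 2 or 5 (highest adjusted p 0.12), and Itgb6 without cachectic mouse 1, 2 or 6 or non-cachectic mouse 1, 2, 4 or 5 (highest adjusted p 0.161).

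Co-receptors and SMAD signaling genes carry and brake the signal inside the cell. Of 20 genes tested limma called 0 at 6 weeks in either comparison, with medians of 0.09 and 0.10, which median-ratio scaling turned to -0.08 and -0.04. These zeros did not hold without the libraries of few genes, where 1 was lower and 3 higher against control mice (4.29% and 26.9% of all genes) and 0 lower and 4 higher against non-cachectic mice (5.18% and 22.1%), so the higher counts do not exceed the background. Median-ratio scaling gave 1 lower and 1 higher against control mice. At 8 weeks Pmepa1, a feedback inhibitor, fell by 0.98 against control mice (adjusted p 0.00699 by limma), the single call of the list (median -0.32), and 0 were called against non-cachectic mice (median -0.21). These counts depended on the processing. Without the libraries of few genes 3 were lower and 3 higher against control mice (median -0.03), and 1 lower and 3 higher against non-cachectic mice (median 0.03). With median-ratio scaling 6 were lower and 1 higher against control mice (median -0.19), and 5 lower and 1 higher against non-cachectic mice (median -0.10).

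Genes that TGF-beta induces in fibroblasts serve as a readout of the pathway in culture, though other signals induce them too. Of 20 genes limma called 0 lower and 2 higher against control mice at 6 weeks, beside 1.17% and 5.62% of all genes. The median log2 fold change of the list was -0.06 (all genes 0.17). Median-ratio scaling gave 1 lower and 2 higher, beside 3.98% and 3.47% of all genes, with a median of -0.21. Lox, the enzyme that cross-links collagen, was at 13.3 ± 3.65 TPM (SD, n = 5) in cachectic mice, 2.50 ± 0.676 TPM in control mice and 3.91 ± 0.821 TPM in non-cachectic mice. It rose by 2.01 against control mice (SE 0.31, adjusted p 1.53e-05 by limma) and by 1.52 against non-cachectic mice (adjusted p 0.00136). Timp1, an inhibitor of matrix proteases named here after its values were seen, rose by 1.12 against control mice (adjusted p 0.00652), and both calls against control mice held without each mouse in turn.

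Against non-cachectic mice at 6 weeks limma called 2 genes of the same list lower and 1 higher, beside 1.57% and 4.28% of all genes. The median was -0.15 (all genes 0.14), and -0.24 with median-ratio scaling. The counts were 6 lower and 2 higher without the libraries of few genes (5.18% and 22.1% of all genes), 6 lower and 1 higher with median-ratio scaling (4.21% and 3.45%), and 0 lower and 1 higher without the libraries with liver genes. Without both kinds of library 4 were lower and 5 higher, beside 731 and 4420 of all 13578 genes. Col3a1, a fibrillar collagen, was at 51.2 ± 18.3 TPM (SD, n = 5) against 137 ± 41.7 TPM and fell by 1.41 (adjusted p 0.0342 by limma). That call held in 4 of 10 fits that left out 1 mouse and ended without cachectic mouse 1, 4 or 5 or non-cachectic mouse 1, 2 or 3, with a highest adjusted p of 0.134.

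At 8 weeks 7 of the 20 induced genes were lower and 2 higher against control mice, beside 8.12% and 6.65% of all genes. Against non-cachectic mice 5 were lower and 2 higher, beside 6.19% and 6.75%. The medians of the list were -0.37 and -0.29 (all genes -0.09 and -0.08). These medians were -0.27 and -0.12 without the libraries of few genes. Col1a1 was at 18.3 ± 13.8 TPM (SD, n = 7) against 64.0 ± 19.3 TPM (n = 5) in control mice and fell by 2.12 (adjusted p 0.000672 by limma). Col3a1 fell by 1.89 (adjusted p 0.000428), Col5a1 by 1.59 (adjusted p 0.000936) and Col1a2 by 1.37 (adjusted p 0.00416), all of them fibrillar collagen chains. Lox and Timp1 were the genes called higher in both comparisons, so the list did not move in 1 direction. The call on Timp1 against non-cachectic mice ended without non-cachectic mouse 3 (adjusted p 0.0513), and that on Fap, which is among the 7, ended without cachectic mouse 1 or 6 or control mouse 3 or 4 (highest adjusted p 0.0607).

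Other matricellular genes are proteins that modulate how cells meet the matrix. Of 21 listed 17 were tested. Thbs3, a thrombospondin named after its values were seen, was called higher by 1.00 against control mice at 6 weeks (adjusted p 0.0360 by limma). Over all genes 5.62% were called higher. The median of the list was 0.40 (all genes 0.17), and 0.21 with median-ratio scaling. The call on Thbs3 held in 2 of 10 fits that left out 1 mouse, those without cachectic mouse 5 or control mouse 3, with a highest adjusted p of 0.108. Against non-cachectic mice at 6 weeks limma called 0 in either direction (median 0.25, all genes 0.14, and 0.09 with median-ratio scaling). Leaving out the libraries of few genes, 5 of the 17 were called higher against control mice, beside 26.9% of all genes, and 2 against non-cachectic mice, beside 22.1%, so the counts lie near or below the background. At 8 weeks Spp1, which encodes osteopontin, was at 11.4 ± 5.75 TPM (SD, n = 7) against 4.16 ± 0.732 TPM (n = 5) and rose by 1.13 against control mice (adjusted p 0.00374). Nov fell by 0.94 (adjusted p 0.0492), a call that held in 3 of 12 fits leaving out 1 mouse, those without cachectic mouse 2 or control mouse 1 or 2, with a highest adjusted p of 0.239. Against non-cachectic mice Cyr61 was lower, a call that ended without non-cachectic mouse 3 (adjusted p 0.0583), and Spp1 was higher, a call that ended without cachectic mouse 1 or non-cachectic mouse 1 or 5 (highest adjusted p 0.0679). The median of this list changed sign at 8 weeks with median-ratio scaling, from -0.05 to 0.10 against control and from -0.09 to 0.02 against non-cachectic mice, and was 0.12 and 0.08 without the libraries of few genes.

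Marker genes of cell types are set beside these results, and their sums do not tell fewer cells from less RNA per cell. Tendon cells express Postn and Tnc. By the methods of the study, tendon was removed from the diaphragm before RNA was extracted. The 6 tenocyte markers summed to 28.6, 45.3, 41.6, 57.1 and 28.8 TPM in cachectic mice at 6 weeks. Control mice had sums of 72.2, 60.9, 56.8, 105 and 40.7 TPM and non-cachectic mice 71.2, 65.4, 87.8, 40.8 and 45.3 TPM, so the cachectic sums were lower in mean and overlapped with the others. Of 5 tenocyte markers tested limma called 2 lower against control mice, beside 1.17% of all genes. Against non-cachectic mice it called 2 lower and 1 higher, beside 1.57% and 4.28% of all genes, so the list did not move in 1 direction. Fmod was the most abundant of the list, at 53.8% of its sum over all mice. At 8 weeks 3 tenocyte markers were lower against control mice, beside 8.12% of all genes.

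Fibroblasts are the main source of matrix genes, and the 8 fibroblast markers summed to 1350 ± 194 TPM (SD, n = 5) in cachectic mice at 6 weeks, 960 ± 141 TPM in control mice and 1030 ± 96.1 TPM in non-cachectic mice. Dcn, the most abundant of them, was the single call, higher in both comparisons at 6 weeks. The 8 macrophage markers, of which C1qa was the most abundant, summed to 257 ± 57.1, 136 ± 25.8 and 168 ± 76.2 TPM in the same groups, with 3 called higher against control mice and 2 against the other group. Over all genes 5.62% and 4.28% were called higher in these comparisons, and 26.9% and 22.1% without the libraries of few genes. The 4 of 5 neutrophil markers tested gave 0 calls at 6 weeks, with sums of 21.6 ± 5.90, 9.96 ± 3.61 and 10.5 ± 6.37 TPM, and S100a9 was the most abundant. The fibroblast sum is carried by Dcn, which makes up 62.9% of it. The mean log2(TPM + 1) over the 8 fibroblast markers was 5.70 ± 0.254 in cachectic mice, 5.51 ± 0.200 in control mice and 5.78 ± 0.12 in non-cachectic mice, so fibroblast markers other than Dcn were not higher in mean than in non-cachectic mice. Lower Nrep and Postn at 6 weeks thus went with lower tenocyte sums in mean. The macrophage, neutrophil, fibroblast and myofiber sums were higher in mean in the same mice. The part of any of these cells in the result was not tested.

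**Figure D3:**
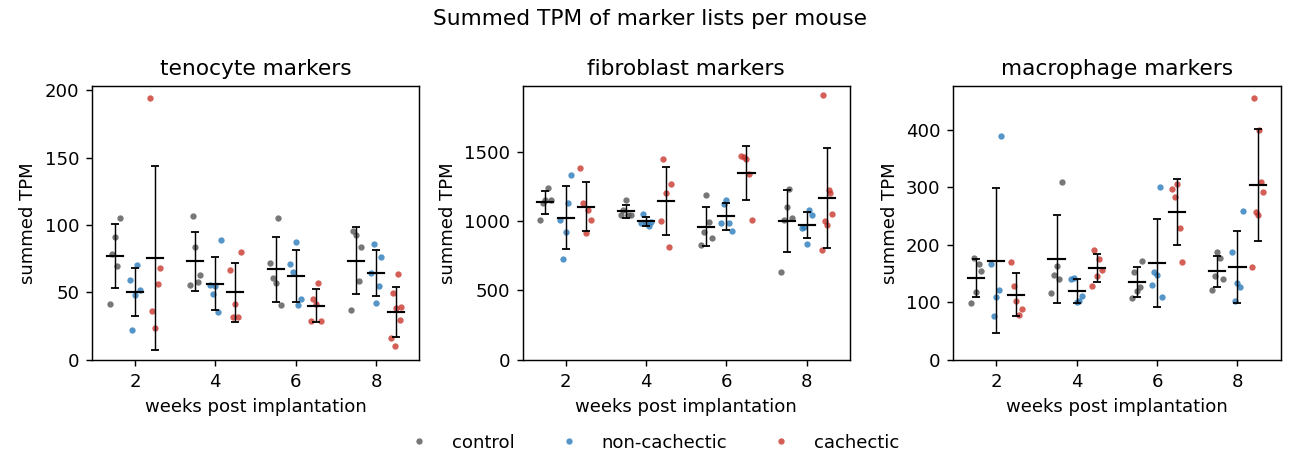
Summed TPM of the tenocyte, fibroblast and macrophage markers per mouse (points) by week after implantation, with the mean (line) and SD (bars) of each group. At 6 weeks the tenocyte sum was 40.3 ± 12 TPM in cachectic and 67.2 ± 24.1 TPM in control mice.

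The other marker lists gave few calls against control mice at 6 weeks, where 1.17% of all genes were lower and 5.62% higher. Of the 8 myofiber markers, led by Acta1, 1 was called lower and 1 higher, and their sum was 76300 ± 7350 TPM (SD, n = 5) against 65100 ± 5630 TPM. Of the cartilage markers, all with a mean under 1 TPM, the 1 tested (Lect1) was called higher. Endothelial (led by Cdh5), smooth muscle and pericyte (Rgs5), mesothelial (Upk3b), satellite cell (Myod1), adipocyte (Cfd) and liver (Alb) markers gave 0 calls. The 5 T cell markers (led by Cd3g) and 5 melanocyte markers (Dct) each averaged under 1 TPM and none was tested. The liver markers summed to 1060 ± 2250 TPM in cachectic mice at 6 weeks against 111 ± 140 TPM, of which mouse 5 had 5080 TPM and the other 4 mice 12.2 to 79.9 TPM, and without the libraries with liver genes Nrep fell by 1.96 against control mice and by 1.87 against non-cachectic mice, each still called by limma.

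Genes whose pattern over the 62 mice was most like that of Nrep are named for description, since the mice fall into groups that differ in Nrep. Over log2(TPM + 1) the highest Pearson correlations of 13577 other genes were those of Grb14 (r 0.932), Nmrk2 (0.923), Frzb (0.903), Casq1 (0.902) and Sh3bgr (0.899). With the 4 weeks pooled, r within the 22 cachectic mice was 0.928, 0.911, 0.919, 0.883 and 0.902. Within the 40 other mice it was 0.616, 0.492, 0.653, 0.634 and 0.543, so the likeness was closer where Nrep varied most. Without the 4 libraries of few genes r over 58 mice was 0.937, 0.934, 0.938, 0.946 and 0.906, the places 6, 7, 4, 2 and 19 among all genes, so 2 of the 5 stayed among the 5 highest.

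Grb14 encodes an adaptor of receptor kinases, Nmrk2 a kinase of NAD synthesis in muscle, Frzb a secreted Wnt antagonist, and Casq1 the calcium-binding protein of the sarcoplasmic reticulum. At 6 weeks Nmrk2 was at 21.5 ± 7.42 TPM (SD, n = 5) in cachectic mice, 101 ± 37.3 TPM in control mice and 123 ± 31.0 TPM in non-cachectic mice. Grb14 was at 7.19 ± 1.29, 18.5 ± 2.63 and 22.0 ± 1.75 TPM, and Frzb at 15.4 ± 2.97, 29.3 ± 4.57 and 34.8 ± 3.82 TPM. Casq1, at 453 ± 89.8, 644 ± 51.9 and 696 ± 114 TPM, was not called in either comparison at 6 weeks (adjusted p 0.214 and 0.135 by limma). Sh3bgr was at 134 ± 32 TPM in cachectic mice, 195 ± 24.9 TPM in control mice and 228 ± 17.2 TPM in non-cachectic mice. Grb14, Nmrk2, Frzb and Sh3bgr were called lower in both comparisons at 6 weeks (highest adjusted p 0.0314 and 0.005 by limma). The genes were chosen over mice that include these, so the calls are a description. Among the other 9 genes of the group r with Nrep over 62 mice ran from 0.614 for Sparc to 0.204 for Tgfb3 in the 7 that are not receptors, a range that was 0.799 for Ltbp4 to 0.288 for Tgfb1 without the libraries of few genes. Within the cachectic mice and within the others, weeks pooled, it was lower for some. In the 22 cachectic mice r ran from 0.651 for Postn to -0.11 for Tgfb1, with -0.0154 for Tgfb3, and in the 40 other mice from 0.557 for Sparc to 0.0565 for Postn, whose r over 62 mice was 0.598. These ranges were 0.806 for Sparc to 0.15 for Tgfb1 and 0.522 for Sparc to 0.075 for Tgfb1 without the libraries of few genes. Over all 62 mice r was -0.556 for Tgfbr1 and -0.489 for Tgfbr2. The negative r of the receptors was found within the 22 cachectic mice (-0.653 for Tgfbr1 and -0.543 for Tgfbr2) and not within the 40 other mice (0.124 and 0.233). These mice pool 2, 4, 6 and 8 weeks, and differences between weeks were not removed. Over those weeks the cachectic means were 104, 59.9, 23.2 and 19.1 TPM for Nrep and 7.15, 13.5, 17.5 and 15.3 TPM for Tgfbr1. Likeness between mice of the same week was not tested. In 19 cachectic and 39 other mice, without the libraries of few genes, it was -0.831 and -0.763 in the former and -0.06 and 0.08 in the latter.

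Promoters are shown for the 2 receptors, which were higher in mean in cachectic mice at 6 weeks, and for Tgfb2 and Postn, which are 2 of the 6 genes with an entry that were lower in mean at that week in both comparisons. The other 4, Ltbp4, Tgfb1, Tnc and Sparc, are not printed, and Ltbp4 was lower against control mice by more than Tgfb2. The sequences are the 250 bases before the start in the RefSeq promoter table (GRCm38.p6), which holds 8 of the 10 genes and has no entry for Nrep and Tgfb3. Where the table gives a gene 2 or 3 starts (Tgfbr1, Postn, Tnc and Ltbp4), the one nearest to the annotated start of the gene was used. Each was searched for CAGAC, the core of the SMAD-binding element, on both strands (GTCTG), which 42.2% of 32851 promoters of this length hold. Capitals mark the matches, which are a description and not sites of binding. Tgfbr1 (chr4:47352972-47353221, plus strand) holds 0, Tgfbr2 (chr9:116175364-116175613, minus strand) 1, Tgfb2 (chr1:186705990-186706239, minus strand) 2 and Postn (chr3:54360857-54361106, plus strand) 0.
Tgfbr1: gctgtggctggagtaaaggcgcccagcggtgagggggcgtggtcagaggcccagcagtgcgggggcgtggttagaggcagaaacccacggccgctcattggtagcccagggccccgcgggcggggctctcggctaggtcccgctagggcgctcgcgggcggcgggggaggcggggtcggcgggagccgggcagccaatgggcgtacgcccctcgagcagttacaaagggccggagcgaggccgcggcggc
Tgfbr2: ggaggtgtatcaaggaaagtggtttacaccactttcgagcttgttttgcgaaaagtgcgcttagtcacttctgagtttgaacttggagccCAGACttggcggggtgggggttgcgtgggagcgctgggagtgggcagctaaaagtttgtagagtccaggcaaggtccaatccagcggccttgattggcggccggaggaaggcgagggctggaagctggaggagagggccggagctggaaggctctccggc
Tgfb2: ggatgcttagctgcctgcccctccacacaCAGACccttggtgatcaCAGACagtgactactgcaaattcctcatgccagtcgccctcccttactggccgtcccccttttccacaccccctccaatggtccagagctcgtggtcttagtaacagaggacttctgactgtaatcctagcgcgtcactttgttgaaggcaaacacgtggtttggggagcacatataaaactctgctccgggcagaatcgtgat
Postn: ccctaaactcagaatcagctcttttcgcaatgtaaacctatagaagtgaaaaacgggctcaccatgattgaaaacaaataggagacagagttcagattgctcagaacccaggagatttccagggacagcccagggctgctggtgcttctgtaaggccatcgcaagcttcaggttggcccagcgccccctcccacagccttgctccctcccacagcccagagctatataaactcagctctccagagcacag
Of the 8 genes matched 3 hold the motif, Tgfb2, Tgfbr2 and Sparc, and Ltbp4, Tgfb1 and Tnc hold 0. The start of Sparc in the table lies 3103 bases from its annotated start, inside the gene, and those of the other 7 lie within 80 bases.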

How the data were processed

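RNA-seq was done on the diaphragm of 62 mice. The authors used CLC Genomics Workbench to align the reads to the mouse genome (GRCm38, mm10) and deposited TPM values for each gene, which sum to 1000000 in each library. The reads per library are unknown. From these, log2(TPM + 1) was computed, the filter kept 13578 genes at 1 TPM or more in 5 or more mice, and limma (3.58.1, R 4.3.3) fitted 1 mean for each of the 12 conditions with an intensity trend. Benjamini-Hochberg adjustment covered all genes tested in each contrast, and genes were called at an adjusted p under 0.05. The exact permutation test was run in Python 3.11.15 with scipy 1.17.1 and figures were drawn with matplotlib 3.10.9. The members and the lists were chosen with earlier results of these data known.

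The lists are latency and activation of TGF-beta, co-receptors and SMAD signaling, genes TGF-beta induces in fibroblasts, other matricellular genes, and markers of myofibers, fibroblasts, tenocytes, endothelium, smooth muscle and pericytes, macrophages, neutrophils, mesothelium, satellite cells, adipocytes, cartilage, T cells, melanocytes and liver. Pmepa1, Smad7, Skil, Thbs1, Tgfbi and Ctgf are each in 2 of the pathway lists. Named genes are the 10 members, up to 4 genes of each pathway list with the largest absolute log2 fold change among those called at 8 weeks against control mice and at 6 weeks against non-cachectic mice, the 5 genes most correlated with Nrep, and the most abundant marker of each list. Others, such as Ltbp2, Cyr61, Timp1 and Thbs3, were chosen after their values were seen.

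Alternatives tried were no filter, a pseudocount of 0.1, median-ratio scaling, TPM of nuclear genes, quantile normalization, array quality weights, a block for the replicate number, Dunn's test, a fit of only the groups compared, leaving out the 4 libraries with fewer than 17000 genes above 0 or the 7 with a liver-list mean over 4 above the median, and leaving out each mouse. Leaving out both kinds of library was added after seeing the data. The methods were tested on simulated data. Protein sequences were not used here.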

Additional observations from a re-analysis of the deposited data

Results flagged for a closer look

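In 10 of 120 groups (10 genes in 12 conditions) 1 mouse lay far from the others of its group, by Dixon's ratio of its gap to the range. Chance flags about 1 in 20 groups. Nrep was low in non-cachectic mouse 3 at 8 weeks, at 39.6 TPM, and Sparc was low in the same mouse, at 124 TPM. Tgfb2 was high in control mouse 2 at 8 weeks, at 13 TPM, and Postn was low in control mouse 5 at 4 weeks, at 3.5 TPM.

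The other 6 came from 2 libraries of few genes. Cachectic mouse 3 at 8 weeks was low in Tgfb3 (4.67 TPM), Tgfbr1 (4.28 TPM), Tgfbr2 (11.6 TPM) and Ltbp4 (5.60 TPM). Non-cachectic mouse 5 at 2 weeks was low in Tgfb3 (8.57 TPM) and Ltbp4 (27.2 TPM). The part of library quality in these values was not tested.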

How the results depend on the processing

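Of the results that answer a comparison, 200 values under the alternatives kept their side of the threshold or their size, 40 counts moved and 2 calls were lost. Leaving out 1 mouse, 183 kept theirs and 17 moved. The lost calls are those of Nrep at 6 weeks under Dunn's test, with log2 fold changes of -1.85 and -1.76 (adjusted p 0.152 and 0.217). Of the other values under the alternatives 657 were kept, 151 moved, 55 passed the threshold anew, 9 no longer passed it and 4 reversed, and leaving out 1 mouse 742 were kept, 43 moved, 11 no longer passed and 6 reversed.

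At 2 weeks the 1 gene called lower in cachectic than in control mice, Tgfbr1, became 0 with median-ratio scaling, quantile normalization, array quality weights, only the groups compared, without the libraries of few genes, without those with liver genes, without both and under Dunn's test. Leaving out 1 mouse gave counts of 0 to 8. Against non-cachectic mice the count of lower genes was 0 and leaving out 1 mouse gave 0 to 1.

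At 6 weeks the 1 gene lower against control mice became 3 with median-ratio scaling and with only the groups compared, 2 with quantile normalization, without the libraries of few genes and without both kinds, 4 with array weights and 0 under Dunn's test. The 0 genes higher became 2 with median-ratio scaling, quantile normalization, array weights, only the groups compared, without the libraries of few genes and without both. Against non-cachectic mice the 2 genes lower became 1 with no filter, 5 with median-ratio scaling, quantile normalization, only the groups compared and without the libraries of few genes, 4 with nuclear genes, 6 with array weights and without both, and 0 under Dunn's test, and leaving out 1 mouse gave 1 to 2. The 0 higher became 1 with quantile normalization and 2 with median-ratio scaling, array weights, only the groups compared, without the libraries of few genes and without both.

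With array weights 1 gene was called higher in each of cachectic versus control and versus non-cachectic mice at 4 weeks, the latter also without both kinds of library, and 1 (Sparc) in non-cachectic versus control mice at 6 weeks. Tgfbr1 at 2 weeks turned to 0.16 without both kinds of library, where 2 mice were left in each group. Tgfb3 against non-cachectic mice at 6 weeks turned to -0.15 with median-ratio scaling and with nuclear genes and to -0.16 with quantile normalization, and ran from -0.0435 to 0.0755 leaving out 1 mouse. The causes were not tested.

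The labels do not say that replicate numbers pair mice. Over 60 pairs of mice of the same number and week the correlation ran from -0.633 to 0.387 (median -0.0317), and 18 were over 0.1. These values cannot decide whether mice of the same number were handled together. With a block for the number limma called 1 of the 10 genes lower against control and 2 against non-cachectic mice at 6 weeks, and cachectic mice 6 and 7 at 8 weeks have no partner. Depth in reads is unknown and its limits cannot be given.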
